A study of Bos taurus
Mus musculus with 10 samples.

Results

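R-spondins 1 to 4 (RSPO1, RSPO2, RSPO3 and RSPO4), their receptors LGR4, LGR5 and LGR6, and the Wnt co-receptors LRP5 and LRP6 were followed in cultures of bovine embryonic stem cells on mouse feeder fibroblasts. The 9 genes were taken by symbol among 27590 genes of the bovine table and by NCBI gene ID among 31349 genes of the mouse table, and all 9 were present in both. The mouse names below rest on those IDs, since the tables used here pair no other mouse ID with a name.

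R-spondins are secreted proteins that bind LGR4, LGR5 or LGR6 together with the membrane ubiquitin ligases ZNRF3 and RNF43. The ligases otherwise remove frizzled receptors and LRP6 from the cell surface, and R-spondin binding takes the ligases away, so that cells respond more strongly to Wnt proteins. LRP5 and LRP6 stand beside frizzled in the Wnt receptor, and their phosphorylated tails bind AXIN. IWR-1 inhibits tankyrases and so stabilises AXIN, below these receptors in the pathway. LGR5 and ZNRF3 are themselves Wnt target genes in mouse and human tissues.

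The 5 wild-type stem cell lines 1, 2, 4, 8 and 11 came from blastocysts on day 7.5. They were grown in mTeSR1 medium on fibroblasts of E13.5 CD-1 mouse fetuses that mitomycin C had arrested. For 1 day, 1 well of each line was given medium lacking IWR-1 (IWRR) and 1 well kept 2.5 µM IWR-1 (IWR), after which poly(A) RNA of the mixed culture was sequenced. All IWRR wells had thus been kept in IWR-1 beforehand, and the feeders met the same media as the stem cells.

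Each well gave 48064953 to 64345738 reads on bovine genes and 17101894 to 35223039 on mouse genes. Mouse genes took 21.2% to 41.4% of these reads in IWRR wells and 23.4% to 42.3% in IWR wells, and all 5 lines had less of them without IWR-1 (mean -3.64 percentage points). All 6 pluripotency markers, among them POU5F1, SOX2 and NANOG, were detected on bovine genes in every well. Their sum was lowest in line 4 in both media. It was 91852 normalised reads in the IWRR well of line 4, against 96183 to 181850 in the other lines, and 94978 in its IWR well, against 104788 to 183666. Line 4 stood apart in both media: its mouse shares were the highest, and the 13 bovine fibroblast and mesenchyme markers summed to 140654 normalised reads in its IWRR well and 127645 in its IWR well. In the other lines they summed to 11106 to 40455 in IWRR wells and 8900 to 28774 in IWR wells. Of those 13, FAP was at 0 outside line 4, and POSTN in the IWR well of line 1. In the IWR wells, LUM was higher in line 11 (2522) than in line 4 (2251). The 5 endoderm and hypoblast markers also summed highest in line 4 (5546 IWRR and 5996 IWR, against at most 1660 and 1439), mostly through CXCR4 (5511 and 5964). So did the 6 primitive streak and mesoderm markers (763 and 520, against at most 672 and 489). The 5 trophectoderm markers summed lowest there (170 and 52.4, against at least 213 and 197). No source used here states the fate of reads aligning to both genomes, and neither the part of such reads nor that of other cell types in the results below was tested beyond the values printed.

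Levels are normalised reads, that is, a gene's read count divided by a size factor of its library, and each table was scaled on its own. They are not corrected for transcript length, so that different genes are not compared in level. A difference is the mean log2 change of IWRR over IWR within lines, on log2(level + 1), with limma and the line as a block. "Rose" and "fell" are kept for a Benjamini-Hochberg adjusted p under 0.05 over all tested genes of the table. Since 1 gene's RNA in a mixed well reflects both cell number and RNA per cell, fewer cells of a type and less RNA per cell cannot be told apart. Each line gave 1 well per medium, so the p-values measure the spread between these 5 pairs of wells.

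Of the 9 bovine genes, 1 rose without IWR-1 (LGR5) and 0 fell. Across the 18506 bovine genes tested 0.951% were called, 0.886% upward and 0.0648% downward, so that 1 call in 9 rests on a single gene. At an unadjusted p under 0.05 there were 3 of the 9 (RSPO4, LGR4 and LGR5), against 10.1% of all tested genes. RSPO4 passed the filter on low values mainly through its IWRR wells, where it is higher, so its place among these 3 is not independent of that filter. The bovine members had a median log2 difference of 0.08, where all tested genes had a median of -0.00463. Of the 9 mouse genes none was called by limma, edgeR or DESeq2 with the line as a block, and 1 (Lrp5) had an unadjusted p under 0.05, against 16.2% of all tested genes. Of 15871 mouse genes tested, 4.19% were called, 2.14% upward and 2.05% downward. The mouse members had a median log2 difference of -0.15, against a median of -0.000414 over all tested mouse genes.

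**Figure D1:**
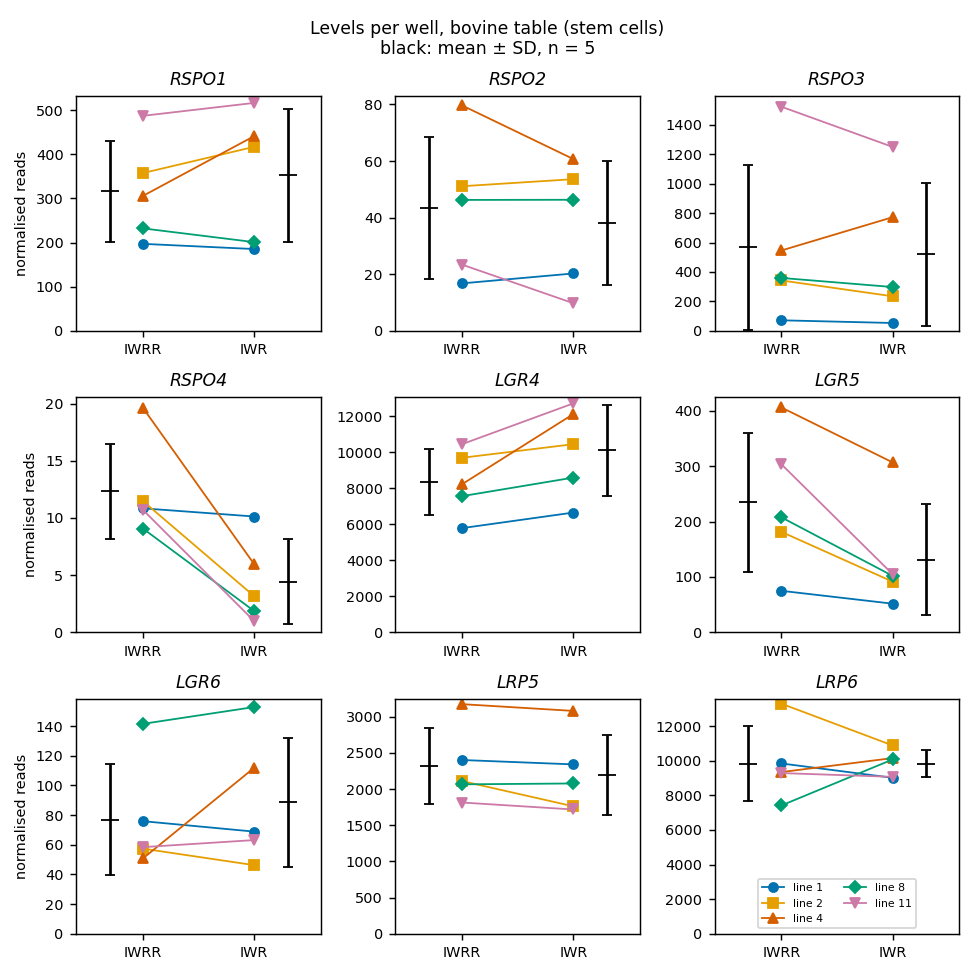
Normalised reads of the 9 bovine genes per well (vertical axes, linear from 0), with IWRR left and IWR right, a line joining both wells of each cell line, and black marks for the mean ± SD (n = 5). LGR5 is higher in the IWRR well of all 5 lines and LGR4 lower, and for RSPO3 the lines keep 1 order in both media.

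LGR5, the R-spondin receptor that marks stem cells of the mouse intestine, was the bovine member that rose. Its bovine transcripts stood at 74.9, 181, 406, 208 and 304 normalised reads in the IWRR wells of lines 1, 2, 4, 8 and 11, against 51.6, 91.4, 307, 102 and 105 in their IWR wells. Every line was higher without IWR-1, although the lines differed so much that the groups overlapped: line 1 without IWR-1 lay below 4 of the 5 IWR wells. The mean was 235 ± 126 normalised reads in IWRR wells and 131 ± 100.5 in IWR wells (SD, n = 5), a log2 difference of 0.89 ± 0.17 (SE; 95% interval 0.52 to 1.26; limma adjusted p = 0.0396). The log2 change was smallest in line 4, at 0.40, and largest in line 11, at 1.52. Line 4, the line with the most reads on mouse genes and on bovine fibroblast markers, was thus the highest in level in both media and the lowest in change. Without line 4 the difference was 1.01 and LGR5 remained called (limma adjusted p = 0.0449).

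The call for LGR5 ended without line 1, 2, 8 or 11 (leaving out each line in turn gave log2 differences of 0.73 to 1.01 and limma adjusted p = 0.0449 to 0.18), with no filter on low genes (adjusted p = 0.115), and without the line block (adjusted p = 1.00). When each well's mouse share, itself lower in every IWRR well, was added to the fit, the LGR5 difference was 0.15 (limma adjusted p = 1.00) and 0 bovine genes were called, with 456 at an unadjusted p under 0.05.

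LGR4, the receptor of this family with the broadest expression in mammalian tissues, ran the other way in every line without passing the test. Its levels were 5789.7, 9699.7, 8235, 7568 and 10459 normalised reads in the IWRR wells of lines 1, 2, 4, 8 and 11, against 6654, 10455, 12133, 8597 and 12725 in the IWR wells. The IWRR well was the lower one in 5 of 5 lines, and the groups overlapped. Of all bovine genes tested, 4.92% were lower without IWR-1 in 5 of 5 lines and 6.2% were higher in all 5. The log2 difference of LGR4 was -0.27 ± 0.07 (SE; 95% interval -0.42 to -0.11; limma adjusted p = 0.133). DESeq2 on the recovered reads called it (-0.27, DESeq2 adjusted p = 0.0336), and edgeR did not (adjusted p = 0.123). Line 4 had the largest change, at -0.56 on the log2 scale, and without it the mean was -0.19.

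LGR6, which marks stem cells of the mouse hair follicle, was low and showed no common direction. It had 75.9, 57.4, 50.8, 141 and 58.4 normalised reads in the IWRR wells of lines 1, 2, 4, 8 and 11, against 68.8, 46.2, 112, 153 and 63.1 in the IWR wells. Line 8 was highest in both media, and the level in line 4 was under that of the other lines without IWR-1 but not with it. The log2 difference was -0.18 ± 0.21 (SE; 95% interval -0.65 to 0.29; limma adjusted p = 0.885), and 0.06 without line 4, whose own change was -1.12.

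Among the ligands, RSPO4, whose loss in humans causes absence of nails, had the largest log2 difference of the 9 bovine genes and the fewest reads. The bovine gene was covered by 11, 11, 17, 10 and 11 recovered reads in the IWRR wells of lines 1, 2, 4, 8 and 11, against 10, 3, 5, 2 and 1 in the IWR wells. In normalised reads this made 12.3 ± 4.17 in IWRR wells and 4.41 ± 3.71 in IWR wells (SD, n = 5). It was higher without IWR-1 in 5 of 5 lines, by 0.09 in line 1 and by 1.57 to 2.57 on the log2 scale in the others. The mean log2 difference was 1.53 ± 0.45 (SE; limma adjusted p = 0.196), and it depends on the pseudocount at these counts, with 1.84 at 0.1 and 0.65 at 10. RSPO4 passed the low-count filter (at least 10 normalised reads in at least 5 libraries) with 5 libraries, 4 of them IWRR wells. In the same wells the mouse gene Rspo4 had 1286 to 3743 recovered reads in IWRR wells and 1358 to 4679 in IWR wells.

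RSPO3, an R-spondin needed for blood vessels of the mouse placenta, differed between stem cell lines far more than between media. Its levels were 70.9, 342, 546, 359 and 1524 normalised reads in the IWRR wells of lines 1, 2, 4, 8 and 11, against 52.6, 234, 772, 297 and 1250.1 in the IWR wells. The order of lines was the same in both media, from line 1 over lines 2, 8 and 4 to line 11, with the highest level 21.5 times the lowest in IWRR wells and 23.7 times in IWR wells. The line accounted for 98.0% of the sum of squares of its log2 levels, where the median bovine gene had 84.5%, and the medium for 0.466%. The log2 difference was 0.20 ± 0.14 (SE; 95% interval -0.11 to 0.52; limma adjusted p = 0.748). The change was positive in lines 1, 2, 8 and 11, at 0.27 to 0.54, and -0.50 in line 4, without which the mean was 0.38 (limma adjusted p = 0.254).

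RSPO1, which acts in ovary development of mouse and human, had 197, 358, 306, 232 and 487 normalised reads in the IWRR wells of lines 1, 2, 4, 8 and 11, against 185, 417, 441, 201 and 517 in the IWR wells. Line 11 was highest and line 1 lowest in both media, and 2 lines were higher and 3 lower without IWR-1. Its log2 difference was -0.11 ± 0.12 (SE; 95% interval -0.37 to 0.15; limma adjusted p = 0.878). RSPO2, which acts in limb and lung development of the mouse, had 16.8, 51.1, 79.6, 46.2 and 23.3 normalised reads in IWRR wells, against 20.2, 53.6, 60.7, 46.3 and 9.71 in IWR wells of the same lines. Line 4 was highest in both media. The log2 difference of RSPO2 was 0.25 ± 0.25 (SE; 95% interval -0.31 to 0.81; limma adjusted p = 0.867), and 0.01 without line 11, whose change of 1.18 was the largest and stands on 24 reads without IWR-1 and 10 reads with it.

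The co-receptors had the smallest mean differences among the bovine members. LRP5, known for its part in bone mass, had 2401, 2109, 3173, 2065 and 1814 normalised reads in the IWRR wells of lines 1, 2, 4, 8 and 11, against 2341, 1761, 3079.6, 2077 and 1717 in the IWR wells. Line 4 was highest and line 11 lowest in both media, with changes of -0.01 to 0.26 on the log2 scale. Its mean log2 difference was 0.08 ± 0.06 (SE; limma adjusted p = 0.774), and the 95% interval of -0.05 to 0.22 bounds the change in either direction. LRP6, which the mouse embryo needs for gastrulation, had 9845, 13299, 9348, 7418 and 9289 normalised reads in IWRR wells, against 9016, 10885, 10155, 10078 and 9071 in IWR wells. Lines 1, 2 and 11 were higher and lines 4 and 8 lower without IWR-1, and the spread of the IWRR wells (SD 2144, n = 5) was wider than that of the IWR wells (SD 793, n = 5). The log2 difference of LRP6 was -0.02 ± 0.09 (SE; 95% interval -0.22 to 0.18; limma adjusted p = 0.976), and 0.08 without line 8.

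**Figure D2:**
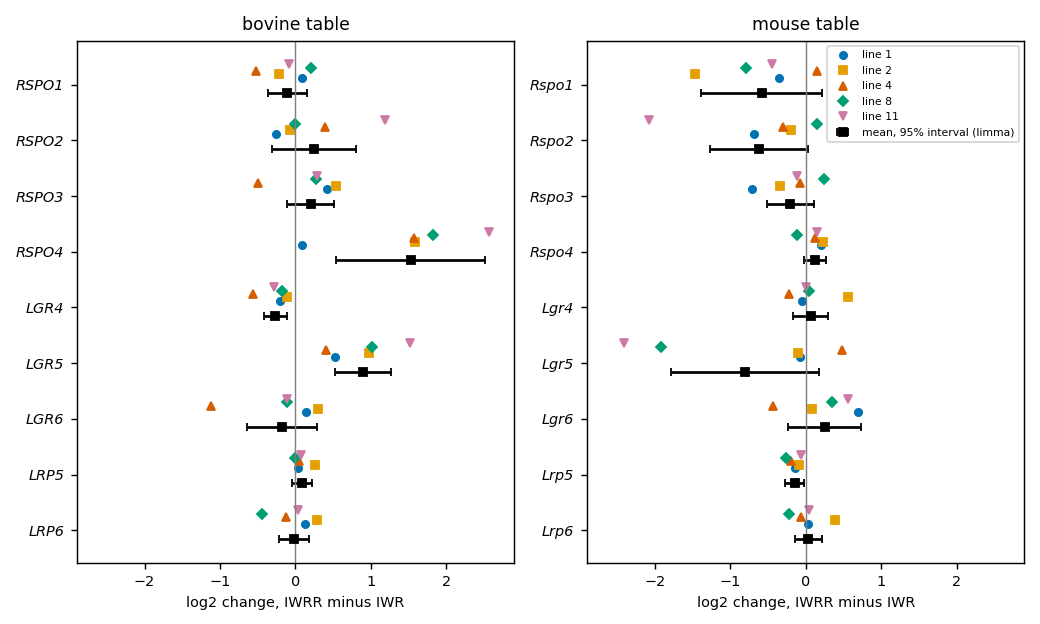
Log2 change of IWRR over IWR (horizontal axes) for each gene in each line (coloured symbols), with the mean and its 95% limma interval in black, for the bovine table on the left and the mouse table on the right. The intervals lie beside 0 for bovine RSPO4, LGR4 and LGR5 and for mouse Lrp5, of which LGR5 passed the adjusted test.

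In the mouse table, the level of Rspo4 varied with the line in the well far more than with the medium. It had 2629, 1564, 1167, 4456 and 3676 normalised reads in the IWRR wells of lines 1, 2, 4, 8 and 11, against 2288, 1335, 1070.3, 4822 and 3304 in the IWR wells. The order was the same in both media, from line 4 over lines 2, 1 and 11 to line 8, with a ratio of highest to lowest of 3.82 in IWRR wells and 4.51 in IWR wells. Of the variation of its log2 levels (sum of squares), 98.8% lay between lines, where the median mouse gene had 69.6%. The labels describe all feeders alike, and whether lines were plated on different feeder preparations is not stated in them. The log2 difference between media was 0.12 ± 0.07 (SE; 95% interval -0.03 to 0.26; limma adjusted p = 0.432), positive in 4 lines and -0.11 in line 8.

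**Figure D3:**
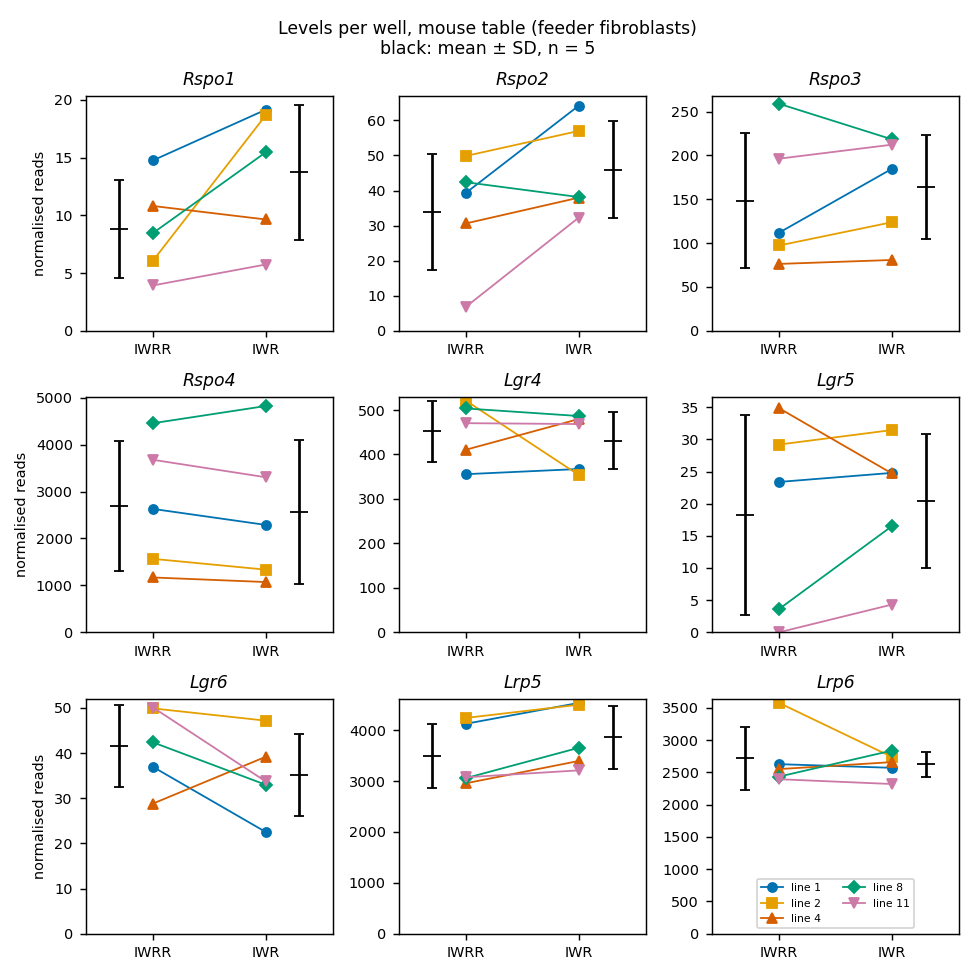
Normalised reads of the 9 mouse genes per well (vertical axes, linear from 0), with IWRR left and IWR right, a line joining both wells that held the same stem cell line, and black marks for the mean ± SD (n = 5). Rspo4 and Rspo3 keep their order of wells in both media, with line 4 lowest and line 8 highest, and Lrp5 is lower in every IWRR well.

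Mouse Rspo3 showed the same order of wells as Rspo4 in both media. It had 112, 97.3, 76.3, 259 and 196 normalised reads in the IWRR wells of lines 1, 2, 4, 8 and 11, against 185, 124, 80.8, 218 and 212 in the IWR wells. It was lower without IWR-1 in 4 lines and higher in line 8, with a log2 difference of -0.20 ± 0.14 (SE; limma adjusted p = 0.573). The line 11 wells, with the most bovine RSPO3, were thus in second place for mouse Rspo3, and the line 4 wells, in second place for the bovine gene, were last for the mouse gene. Rspo1 and Rspo2 were low in the mouse table. Rspo1 had 4 to 18 recovered reads in IWRR wells and 8 to 19 in IWR wells, and passed the filter with 5 libraries. Its log2 difference was -0.59 ± 0.37 (SE; limma adjusted p = 0.508), lower in 4 of 5 lines. Rspo2 had 39.4, 49.9, 30.6, 42.4 and 6.87 normalised reads in IWRR wells, against 64.2, 57.0, 38.0, 38.1 and 32.3 in IWR wells of the same lines. It too was lower in 4 of 5 lines (-0.62 ± 0.30 SE; limma adjusted p = 0.335), and line 11, with 7 reads in its IWRR well and 45 in its IWR well, carried much of the mean, which was -0.26 without it.

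Of the feeder receptors, Lrp5 was the one with a lower level without IWR-1 in all 5 lines. It had 4125, 4239.6, 2956, 3058 and 3074 normalised reads in the IWRR wells of lines 1, 2, 4, 8 and 11, against 4534, 4499, 3394, 3653 and 3209 in the IWR wells. The groups overlapped, and 7.83% of all tested mouse genes were lower and 7.83% higher without IWR-1 in 5 of 5 lines. Its log2 difference of -0.15 ± 0.06 (SE; 95% interval -0.28 to -0.02) did not pass over all genes (limma adjusted p = 0.225). Lrp6 averaged 2717 ± 489 normalised reads in IWRR wells and 2625 ± 197 in IWR wells (SD, n = 5), with a log2 difference of 0.04 ± 0.08 (SE; limma adjusted p = 0.896). Line 2 without IWR-1 was its highest well, at 3575, and without line 2 the difference was -0.05.

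Mouse Lgr4 averaged 452 ± 68.3 normalised reads in IWRR wells and 431 ± 64.9 in IWR wells (SD, n = 5). Its log2 difference was 0.07 ± 0.11 (SE; 95% interval -0.16 to 0.30; limma adjusted p = 0.839), and the largest single change was 0.56 in line 2. Lgr6 lay at 28.8 to 50.1 normalised reads in IWRR wells and 22.5 to 47.2 in IWR wells, with a log2 difference of 0.25 ± 0.22 (SE; limma adjusted p = 0.673). Lgr5 had 23.4, 29.2, 34.8, 3.63 and 0 normalised reads in the IWRR wells of lines 1, 2, 4, 8 and 11, against 24.8, 31.4, 24.7, 16.5 and 4.30 in the IWR wells. The 0 reads in line 11 allow a level of up to 2.95 normalised reads, taking 3 reads as the limit for counting error. Its log2 difference of -0.81 ± 0.45 (SE; limma adjusted p = 0.431) came from lines 8 and 11, at -1.92 and -2.41, and depends on the pseudocount (-1.46 at 0.1 and -0.25 at 10). Lines 1, 2 and 4 were at -0.08, -0.10 and 0.48. Bovine LGR5 and mouse Lgr5 therefore had different signs of the mean, a difference between separately scaled tables that was not tested.

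Because both tables come from the same libraries, reads of each gene pair could be divided between the species well by well. As a yardstick, bovine genes took 58.6% to 78.8% of all reads in IWRR wells and 57.7% to 76.6% in IWR wells. Of the ligands, RSPO1 reads lay almost wholly on the bovine gene, 93.6% to 99.2% in IWRR wells and 91.5% to 98.5% in IWR wells. RSPO4 reads lay almost wholly on the mouse gene: the bovine share was at most 0.867% (line 4 IWRR; Wilson 95% interval 0.542% to 1.38%) and at least 0.0217% (line 11 IWR; 0.00383% to 0.123%). RSPO3 was divided by line, from 44.2% bovine in line 1 (Wilson 95% interval 36.8% to 51.8%) to 88.7% in line 11 (87.1% to 90.1%) in IWRR wells, against 24.1% (18.9% to 30.2%) and 81.3% (79.3% to 83.1%) in the IWR wells of the same lines. RSPO2 lay between, at 34.7% to 77.4% in IWRR wells and 18.2% to 57.5% in IWR wells. These intervals cover counting error only.

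**Figure D4:**
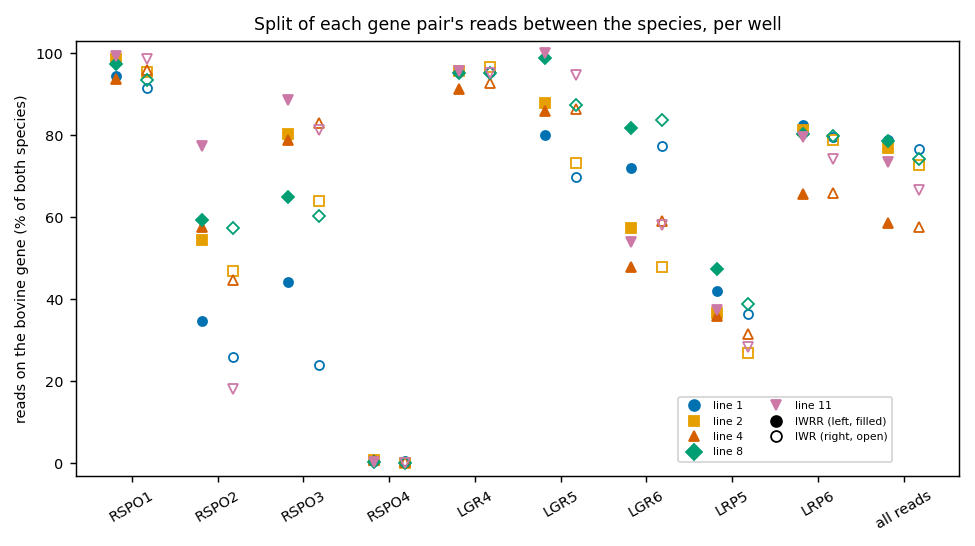
Share of each gene pair's recovered reads that lay on the bovine gene, in percent of both species' reads (vertical axis), per well, with IWRR filled and left, IWR open and right, and symbols for the lines; the last column gives all reads. RSPO1, LGR4 and LRP6 lie above the all-reads value of the same well in every well, LGR5 in every well but the line 1 IWR well. RSPO4 lies near 0, and LRP5 below the all-reads value.

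Of the receptors, LGR4 reads were 91.3% to 95.7% bovine in IWRR wells and 92.8% to 96.5% in IWR wells, above the bovine share of all reads in each. LGR5 reads were 80.0% to 100% bovine in IWRR wells and 69.9% to 94.7% in IWR wells. LGR6 reads were 47.8% to 81.7% bovine in IWRR wells and 47.8% to 83.8% in IWR wells. The co-receptors stood apart from each other: LRP6 reads were 65.6% to 82.4% bovine in IWRR wells and 65.9% to 79.8% in IWR wells. In every well this was above the bovine share of all reads. The gap was narrowest in the line 8 IWRR well (80.3% against 78.5%) and widest in the line 4 IWR well (65.9% against 57.7%). LRP5 reads lay mostly on the mouse gene, with 35.8% to 47.4% bovine in IWRR wells and 26.8% to 38.8% in IWR wells. All 5 lines had a higher bovine share of LRP5 reads without IWR-1 (mean difference 7.51 percentage points), and all 5 also had a higher bovine share of all reads (3.64 points). Transcript lengths differ between species, so a share is a division of reads and not of molecules.

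The partners of these proteins were described from lists chosen with earlier results of these data known. Of 10 tested bovine partners of the R-spondin receptors 0 rose and 0 fell, with a median log2 difference of 0.03. ZNRF3, the ligase that R-spondins displace, came closest: it had 1364, 1658, 3209, 1086 and 1689.9 normalised reads in the IWRR wells of lines 1, 2, 4, 8 and 11, against 1162, 1265, 2124, 976 and 1252 in the IWR wells. It was higher without IWR-1 in 5 of 5 lines, by 0.36 ± 0.07 (SE; limma adjusted p = 0.0535). Its relative RNF43 had 66.0, 50.1, 391, 64.4 and 86.6 normalised reads in IWRR wells, against 79.0, 74.6, 108, 52.8 and 81.6 in IWR wells of the same lines. Its mean log2 difference of 0.28 ± 0.29 (SE; limma adjusted p = 0.87) turned to -0.11 without line 4. The heparan sulphate proteoglycans SDC4 (0.23 ± 0.07 SE; limma adjusted p = 0.233) and GPC4 (-0.23 ± 0.08; adjusted p = 0.288) had differences of opposite sign.

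Of 13 tested genes that act on LRP5 and LRP6 from outside, in folding or as kinases, 0 rose and 0 fell (median 0.05). DKK1, a secreted antagonist that binds both co-receptors, was at 1.45 ± 0.36 (SE; limma adjusted p = 0.113), higher in 4 of 5 lines, with 69.1 ± 64.9 normalised reads in IWRR wells and 35.1 ± 53.1 in IWR wells (SD, n = 5). TMEM198, a membrane protein that promotes LRP6 phosphorylation, had its lower level in the IWRR well of all 5 lines (-0.16 ± 0.08 SE; limma adjusted p = 0.586). DKK4, another antagonist of this family, was at 0.61 ± 0.35 (SE; limma adjusted p = 0.648), and CSNK1G2, of the casein kinase 1 gamma group that phosphorylates LRP6, at 0.11 ± 0.06 (adjusted p = 0.653). DKK2, SOST and KREMEN2 were below the filter. Of 14 frizzled and other Wnt receptors 1 rose and 0 fell, with 12 positive differences and a median of 0.06. The gene that rose was ROR2, a receptor tyrosine kinase for WNT5A, at 2831 ± 1359 normalised reads in IWRR wells and 2157 ± 1003 in IWR wells (SD, n = 5; log2 difference 0.38 ± 0.06 SE, limma adjusted p = 0.0207), a call that ended without line 1, 4 or 11. FZD4 was at 0.50 ± 0.12 (SE; limma adjusted p = 0.101), PTK7 at 0.23 ± 0.07 (adjusted p = 0.213) and FZD10 at 0.24 ± 0.09 (adjusted p = 0.393). Of 11 other genes of the LDL receptor family 0 were called, with a median of 0.02. The endocytic receptor gene LRP2 was at 0.53 ± 0.12 (SE; limma adjusted p = 0.074), the reelin receptor gene LRP8 at 0.13 ± 0.07 (adjusted p = 0.622), LRP4 at 0.15 ± 0.08 (adjusted p = 0.624) and LRP11 at -0.10 ± 0.06 (adjusted p = 0.686).

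The change of LGR5 was set beside those of other Wnt target genes in the same fit. The list of these target genes was also chosen with earlier results of these data known. It leaves LGR5 out and also holds ZNRF3, RNF43 and DKK1, while CDX1, CDX2, TBXT, FGF20, ASCL2 and WIF1 were below the filter. Of these, TBXT had 171 normalised reads in the IWRR well of line 4 and 76.2 in its IWR well, against at most 2.96 in other lines. CDX2 had 86.6 and 1.19 in those wells of line 4, against at most 0.973 in other lines. The 18 tested members of the list had 17 positive differences, 1 negative difference and a median of 0.61. Across all tested bovine genes 0.886% rose. Of the 18 targets, 7 rose and 0 fell. They include the cyclin gene CCND1 (1.15 ± 0.12 SE; limma adjusted p = 0.0027), MSX1 (1.83 ± 0.25; adjusted p = 0.0124) and MSX2 (0.94 ± 0.13; adjusted p = 0.0131), both homeobox genes, and the growth factor gene BMP4 (0.72 ± 0.10; adjusted p = 0.0137). AXIN2, the feedback scaffold of the destruction complex, changed by 0.20, 0.55, 0.89, 0.80 and 1.24 in lines 1, 2, 4, 8 and 11 on the log2 scale. NKD1, a feedback inhibitor, changed by 0.40 in line 1, 2.28 in line 4, 1.66 in line 11 and at least 1.12 in lines 2 and 8. LGR5 changed by 0.53, 0.98, 0.40, 1.02 and 1.52 in lines 1, 2, 4, 8 and 11. Line 4 was thus second to line 11 for AXIN2, first for NKD1 and last for LGR5. AXIN2 lost its call without line 4, 8 or 11 and NKD1 without line 4 or 11. MSX1, MSX2 and BMP4 each lost theirs without line 11, and CCND1 stayed called whichever line was left out.

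Genes with a pattern most like that of a member over the 10 wells were found by the root mean square difference of centred log2 levels, among 13200 named bovine genes with a mean of at least 50 normalised reads. The measure was taken for the 6 bovine members with an SD of at least 0.5 over the wells, and the wells of a line share their cells. For LGR5, whose own SD was 0.99, the closest were CALD1, the actin-binding protein caldesmon (0.28), HEPACAM, a cell adhesion protein (0.32), and the gene CPM, carboxypeptidase M (0.33). RSPO3 (SD 1.58) lay closest to the BMP ligand gene BMP7 (0.39), the receptor tyrosine kinase gene ERBB4 (0.42) and SDK2 (0.44). RSPO1 (SD 0.58) lay closest to TLE1, a transcriptional co-repressor (0.20), the N-cadherin gene CDH2 (0.21) and DENND2B (0.22). The closest genes to RSPO2 (SD 0.94) were SH3GL2 (0.43), HEATR9 (0.47) and OXCT1 (0.48), and those to LGR6 (SD 0.61) LRRC34 (0.29), DGKB (0.29) and RNF128 (0.31). For RSPO4 (SD 1.08) the smallest differences were wider, at 0.68 for ATP10A, 0.69 for PSAT1 and 0.70 for CNR1. Its pattern stands on 1 to 17 recovered reads per well, and the part of counting error in it was not tested.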

How the data were processed

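Poly(A) RNA was sequenced from 10 co-culture wells. Per the labels, reads were mapped to ARS-UCD1.3 and to GRCm39; per the submitters' processing notes, featureCounts 1.5.0-p3, HISAT2 2.0.5, fastp and StringTie 1.3.3b were used, with roles not given. The authors deposited 1 table of normalised signal values per species. Within each library 100% of positive values were whole multiples of the smallest one, at a tolerance of 0.01 reads, as read counts divided by a size factor are, which gave back the reads; no label records the scaling. The mouse table's 2 columns without a sample label were not used, though they may have entered its size factors. RefSeq names (ARS-UCD2.0) matched 24660 of the bovine IDs.

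Each table was fitted whole with limma 3.58.1 (R 4.3.3, trend) on log2(value + 1), for genes with at least 10 in at least 5 libraries, with the line as a block, because both wells of a number hold the same cell line (deviations correlated within lines at 0.617 to 0.883 in the bovine and 0.488 to 0.725 in the mouse table). DESeq2 1.42.0 and edgeR 4.0.16 run on these reads, other pseudocounts, no filter, no block, the mouse share as a covariate and leaving out each line were alternatives. The genes, lists and tests were chosen with earlier results of these data known. Named genes were the 9 members, ZNRF3, RNF43, AXIN2, NKD1, up to 4 per list by smallest p, and the 3 nearest patterns of each variable bovine member.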

Additional observations from a re-analysis of the deposited data

Results flagged for a closer look

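Among 66 groups of 5 values, from the 9 members in both tables and from bovine ZNRF3, RNF43, AXIN2 and NKD1, 12 held a value far from the other 4. For independent groups of normal values chance gives about 1 in 20. The levels here were not put on a log scale, and both wells of a line share their cells. The count of 12 therefore cannot be set against that rate. Of the 12 values, 10 were line 4 in the bovine table. LGR5 stood at 307 normalised reads in the IWR well of line 4, against 51.6 to 105 in the other IWR wells, and RSPO4 at 19.6 in its IWRR well, against 9.07 to 11.5. ZNRF3 reached 3209 in the IWRR well and 2124 in the IWR well of line 4, where the other lines had at most 1689.9 and 1265. RNF43 stood at 391 in the IWRR well of line 4, against 50.1 to 86.6. AXIN2 reached 5945 in the IWRR well and 3202 in the IWR well of line 4, and NKD1 4845 and 998. The change of RSPO3 in line 4, at -0.50 on the log2 scale, was set apart from 0.27 to 0.54 in the other lines. Line 4 also had the highest sum of bovine fibroblast and mesenchyme markers and the largest share of mouse reads; their part in these values was not tested. The remaining 2 were LGR6 in the IWRR well of line 8, at 141 against 50.8 to 75.9, and mouse Lrp6 in the IWRR well of line 2, at 3575 against 2394 to 2627.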

How the results depend on the processing

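With the line as a block, 176 bovine and 665 mouse genes were called; without the replicate block limma called 0 in each table, with 105 bovine and 584 mouse genes at an unadjusted p under 0.05, so 0 members were called. With the mouse share as a covariate, 0 genes and 0 members were called in either table (456 bovine and 687 mouse genes unadjusted). With no filter on low values, 53 bovine genes, 0 bovine members and 329 mouse genes were called. DESeq2 called 420 bovine genes and 2 bovine members. Leaving out 1 line gave 31 to 184 bovine genes (36 without line 1, 101 without line 4, 31 without line 11), 0 to 1 bovine members, and 269 to 936 mouse genes (320 without line 1, 283 without line 4, 269 without line 11). The cause of these shifts was not tested. Signs turned with the covariate for bovine RSPO2 (-0.29) and RSPO3 (-0.20) and for mouse Rspo2 (0.24), Lgr4 (-0.13), Lgr5 (1.04), Lgr6 (-0.16) and Lrp6 (-0.029), none of them called. Leaving out 1 line, the log2 differences spanned 0 for bovine LGR6 (-0.30 to 0.055) and LRP6 (-0.10 to 0.083) and for mouse Lgr4 (-0.054 to 0.14) and Lrp6 (-0.051 to 0.10). Scaling by total reads (CPM) moved 0 of the 18 ratios of mean levels by more than the spread between lines. The members with the fewest reads were bovine RSPO4 (1 to 17 recovered reads per well), mouse Rspo1 (4 to 19) and mouse Lgr5 (0 to 58); the part of counting error in their values was not tested.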
